A study of Mus musculus with 6 samples.

Results

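The 44 genes described here encode proteins that move, hold and divide chromosomes in mitosis and that split the cell at cytokinesis, leaving out the mitotic kinases, the cyclins and the kinesins other than Cenpe. They were listed by name from that function, with earlier results of these data known. All 44 were found among the 25703 genes of the count table. All 44 are protein coding and passed the filter on low counts, so each was tested. The 6 RNA libraries were made from proximal incisor tissue of C57BL/6 mice aged 6 weeks, 3 of genotype Arid1a fl/fl (control, with no Cre allele) and 3 of genotype Gli1-CreER;Arid1a fl/fl (Arid1a cKO). Per the labels' protocols, tamoxifen was given to all at 1.5 mg per 10 g body weight on each of 3 days at 1 month of age. CreER, a recombinase that tamoxifen activates, is driven by Gli1, so deletion is limited to cells that express Gli1 at that time and their descendants. Only Arid1a cKO carries the CreER allele, and its presence cannot be told apart from the loss of Arid1a. The labels do not say whether a library came from 1 animal or from a pool. The p-values set the group difference against the spread between these libraries, which may in part be technical.

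Mitosis depends on a sequence of protein machines. Condensin rings and topoisomerase compact the chromosomes, centromeres build kinetochores that bind spindle microtubules, and a checkpoint holds the anaphase-promoting complex (APC/C, a ubiquitin ligase) until every kinetochore is attached. The central spindle and a contractile ring then cut the cell. Most of these genes are transcribed in bursts in G2 and M phase, through promoters with CCAAT boxes and a short element named the cell cycle genes homology region (CHR). At the proximal end of the continuously growing incisor, dividing transit-amplifying cells lie next to the stem cells that feed them.

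Library totals lay between 27300932 and 37908478 estimated counts. Arid1a, the check of the genotype, was at 222, 248.8 and 223 CPM (the count scaled to the library total, with TMM factors) in control replicates 1 to 3 and at 136, 139 and 145 CPM in Arid1a cKO replicates 1 to 3, 1.65-fold lower (edgeR adjusted p = 0.00802). Each of 10 dental mesenchyme markers was present, and their summed level overlapped between the groups, as did that of 14 dental epithelium markers (1252 to 4686 CPM in control, 1504 to 3161 CPM in Arid1a cKO). The enamel genes Amelx, Ambn and Enam were highest in control replicate 3, at 1914, 801.4 and 824 CPM. The median log2 fold change of the 14 epithelium markers was 0.44, and 1 of them rose, Epcam, an epithelial adhesion protein (34.1, 34.2 and 33.6 CPM in control, 50.9, 42.9 and 47.8 CPM in Arid1a cKO, edgeR adjusted p = 0.0199). The summed level of the 4 nerve and glia markers did not overlap (11.2 to 56.5 CPM in control, 66.5 to 107.7 CPM in Arid1a cKO). Nor did that of the 4 cartilage markers (96.7 to 102.9 CPM against 60.7 to 70.6 CPM). In both lists 0 markers had an edgeR adjusted p under 0.05, and the groups mixed in Sox10, S100b and Acan. The cartilage markers went both ways, with log2 fold changes of 0.60 for Col2a1, -0.41 for Acan, -0.51 for Col9a1 and -1.84 for Cnmd. Of 7 neutrophil markers 4 were in the table, each under 1 CPM in every library, and 6 erythroid markers summed to 346.8 CPM in Arid1a cKO replicate 1 against at most 141 CPM elsewhere. The summed levels of the odontoblast, endothelium, leukocyte, skeletal muscle and bone lists overlapped between the groups. Of the 5 odontoblast markers 2 fell, with separate groups: Nes was at 601, 444 and 477 CPM in control and at 240.2, 339 and 259 CPM in Arid1a cKO (edgeR adjusted p = 0.0359), and Alpl at 1181, 774 and 999 CPM against 580.3, 608 and 498 CPM (0.0379). The others went both ways, with log2 fold changes of 0.27 for Dspp, 0.36 for Dmp1 and -0.38 for Phex (edgeR adjusted p = 0.770, 0.682 and 0.707). Of the 4 bone markers 1 rose, the osteocyte gene Sost, at 2.74, 2.83 and 2.89 CPM in control and at 5.86, 10.4 and 8.28 CPM in Arid1a cKO (edgeR adjusted p = 0.0156). The others had negative log2 fold changes, -0.57 for Bglap, -0.85 for Bglap2 and -0.16 for Ibsp (edgeR adjusted p = 0.4535, 0.377 and 0.574). The part of other cell types in the results below was not tested beyond the epithelium covariate. By Xist and Y-linked counts, control replicate 3 and Arid1a cKO replicate 1 were female and the other 4 libraries male.

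Of the 44 segregation genes, 20 rose in Arid1a cKO, 0 fell and 24 did not pass. Passing means a Benjamini-Hochberg adjusted p under 0.05 by edgeR (quasi-likelihood) among the 19613 genes tested, of which 1.50% were called higher and 2.46% lower. The median log2 fold change was 0.45 over the 44 genes, with quartiles of 0.34 and 0.56, and 0.00426 over all genes tested. The sign was positive in 42 of the 44, against 50.8% of all genes. In 35 of them each Arid1a cKO library lay above each control library, which held for 13.8% of all genes. The summed level of the 44 genes was 1681, 2027 and 1823 CPM in the control libraries, in order of their number. The same sum reached 2362, 2437 and 2207 CPM in Arid1a cKO. The groups do not overlap, and the ratio of their means was 1.27. More dividing cells in the tissue and more of these transcripts in each cell cannot be told apart in bulk RNA.

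**Figure D1:**
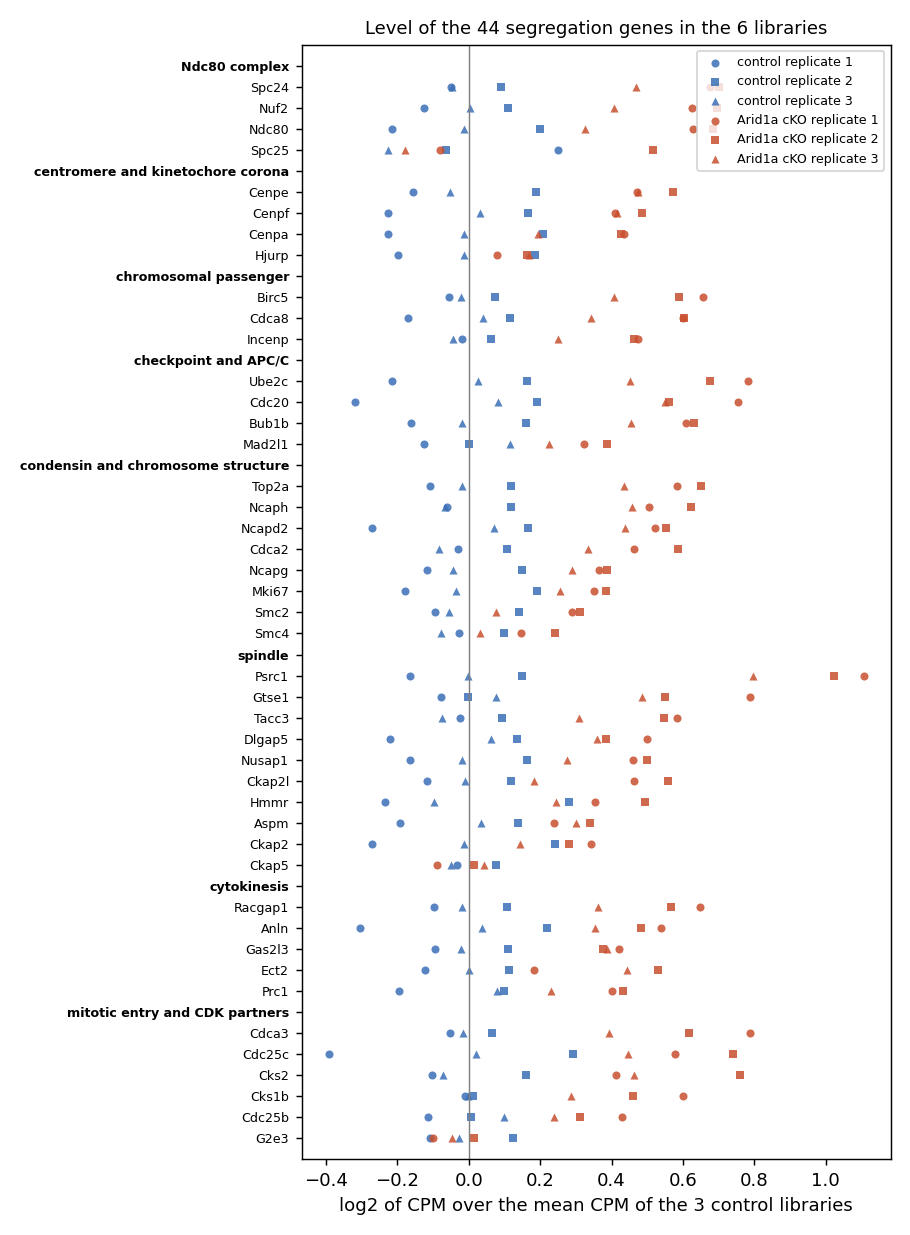
Level of each of the 44 genes in the 6 libraries, grouped by role; the x axis gives the log2 of CPM over the mean CPM of the 3 control libraries (blue), and Arid1a cKO is red, with 1 symbol per replicate number. The red symbols lie to the right of all blue symbols in 35 of the 44 genes, and Spc25, Hjurp, Ckap5 and G2e3 are among those whose groups mix.

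The libraries of a group kept much the same order from gene to gene. Control replicate 1 was the lowest control in 37 genes and control replicate 2 the highest control in 40. Arid1a cKO replicate 3 was the lowest Arid1a cKO library in 35. The mean over the 44 genes of the log2 ratio to the control mean was -0.14, 0.13 and -0.01 in the control libraries in that order. The Arid1a cKO libraries stood at 0.46, 0.50 and 0.32. The 44 genes were measured in the same libraries and are not separate replicates of the difference. Within the 4 male libraries the Arid1a cKO mean was 0.41 above control and 43 of 44 genes were higher. Within the single female pair it was 0.47 above, with 42 of 44 higher.

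The number of genes that passed depended on the libraries. Leaving out 1 control library gave 1, 11 or 1 called genes (replicates 1, 2 and 3 in turn), and leaving out 1 Arid1a cKO library gave 9, 2 or 10, with fewer libraries in each fit. The median log2 fold change over the 44 genes stayed between 0.38 and 0.54 in those fits, and 0 genes were called lower. DESeq2 called 34 of the 44 higher, including the 20, against 4.47% of the genes it tested. With the mean log2 level of the dental epithelium markers as a covariate, 13 of the 20 passed and the median was 0.43. That level was 5.51, 5.86 and 6.74 in control and 6.81, 5.71 and 6.44 in Arid1a cKO. It takes in markers that moved apart, such as Amelx (log2 fold change -1.31) and Krt5 (0.79). The covariate leaves fewer residual degrees of freedom, and why calls were lost was not tested. The 7 that no longer passed were Gtse1 (edgeR adjusted p = 0.0510), Ube2c (0.0535), Cks1b (0.0573), Cdc20 (0.0600), Gas2l3 (0.0602), Cdca8 (0.0653) and Ncapd2 (0.0759).

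**Figure D2:**
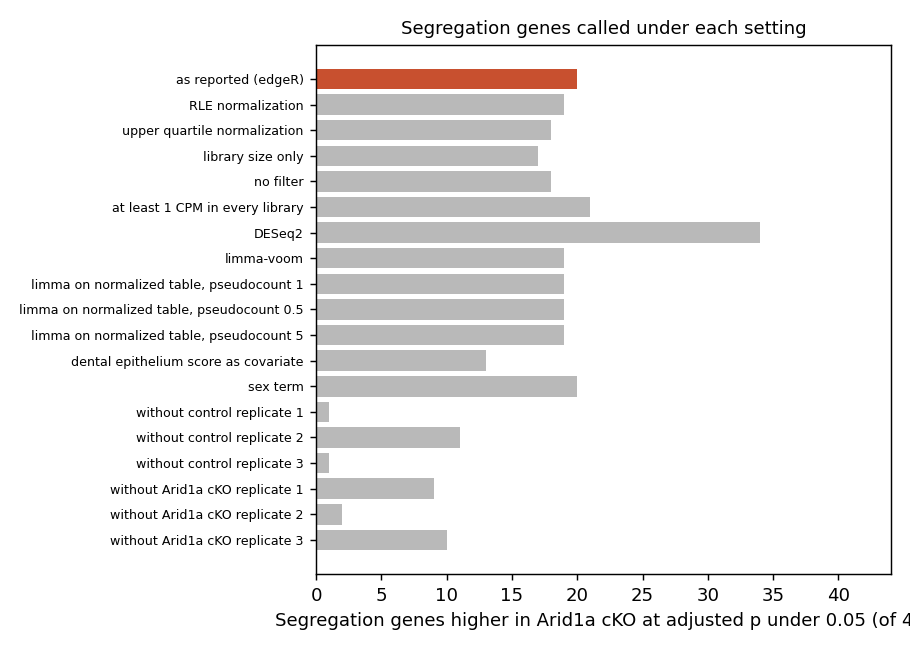
Number of the 44 genes called higher in Arid1a cKO at an adjusted p under 0.05 (x axis) under each way of testing (y axis), with the reported edgeR fit in red. The bar is longest for DESeq2, at 34, and shortest without control replicate 1 or 3, at 1.

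The promoters of many, but not all, of these genes hold short motifs in common. For 4 of the genes that rose, the 250 bases upstream of the gene start are printed. They are those with the smallest p and an entry in the RefSeq table (GRCm38.p6, the assembly that mm10 names). Capitals mark matches, on either strand, to CCAAT, to the CHR forms TTTGAA and TTCGAA, and to the E2F-like TTTNNCGC. On the other strand CCAAT reads ATTGG, the form TTTGAA reads TTCAAA, the form TTCGAA reads the same, and TTTNNCGC reads GCGNNAAA; no motif contains another. The windows are chr3:108383588-108383837 (plus strand) for Psrc1, chr11:99024190-99024439 (minus strand) for Top2a, chr11:117848987-117849236 (plus strand) for Birc5 and chr2:127133955-127134204 (minus strand) for Ncaph, each written 5′ to 3′ along the gene.
Psrc1: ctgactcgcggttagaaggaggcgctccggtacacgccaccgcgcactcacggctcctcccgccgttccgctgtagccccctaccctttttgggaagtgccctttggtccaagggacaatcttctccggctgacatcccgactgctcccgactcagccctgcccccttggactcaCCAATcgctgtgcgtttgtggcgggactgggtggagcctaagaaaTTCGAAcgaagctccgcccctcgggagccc
Top2a: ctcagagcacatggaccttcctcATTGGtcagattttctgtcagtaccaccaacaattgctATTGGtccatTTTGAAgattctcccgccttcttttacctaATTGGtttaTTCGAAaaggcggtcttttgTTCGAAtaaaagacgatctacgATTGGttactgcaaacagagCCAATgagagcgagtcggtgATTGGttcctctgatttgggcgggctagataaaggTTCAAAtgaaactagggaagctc
Birc5: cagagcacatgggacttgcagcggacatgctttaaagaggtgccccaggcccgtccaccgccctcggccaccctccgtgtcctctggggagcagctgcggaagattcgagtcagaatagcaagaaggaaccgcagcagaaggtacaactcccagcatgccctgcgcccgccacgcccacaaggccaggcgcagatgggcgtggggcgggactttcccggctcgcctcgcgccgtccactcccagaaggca
Ncaph: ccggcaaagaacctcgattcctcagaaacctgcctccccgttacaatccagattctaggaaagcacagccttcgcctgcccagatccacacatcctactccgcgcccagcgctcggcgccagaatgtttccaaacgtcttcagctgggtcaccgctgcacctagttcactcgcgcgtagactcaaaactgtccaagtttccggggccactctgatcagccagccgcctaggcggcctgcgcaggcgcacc

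In Psrc1 a CCAAT begins 75 bases before the start and a TTCGAA 30 bases before it. Top2a holds 6 CCAAT matches, the nearest 58 bases before the start, and 4 CHR matches, the nearest 23 bases before it. Birc5 and Ncaph hold none of these letters in the printed bases or in the 50 bases after the start. Of the 44 genes, 38 have a window in the table (250 bases before to 50 after the start), and Spc24, Incenp, Cdca2, Dlgap5, Cdc25c and Smc4 have none. In 4 genes, Psrc1 among them, there are several windows, and the nearest to the start in the count table was used. The window start lay within 50 bases of that start in 30 genes, and was farthest in Cdca8, at 2394 bases. A CCAAT was found in 29 of the 38 windows (76.3%), against 38.3% of 12480 windows of genes tested. Either CHR form was found in 28 (73.7%, against 14.1%) and both a CCAAT and a CHR form in 26 (68.4%, against 5.98%). TTTNNCGC was found in 4 (10.5%, against 8.17%). Both CCAAT and CHR letters were in 11 of 17 windows of genes that rose (64.7%) and in 15 of 21 windows of genes that did not pass (71.4%). A match says only that these letters are present.

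The Ndc80 complex, the rod of 4 proteins that couples the kinetochore to microtubules, had 2 of 4 subunits that rose. Spc24, a subunit of the end that faces the chromosome, was at 10.2, 11.2 and 10.2 CPM in control replicates 1 to 3 and at 16.8, 17.1 and 14.5 CPM in Arid1a cKO replicates 1 to 3. It rose 1.54-fold (log2 fold change 0.62, SE 0.0994, edgeR adjusted p = 0.0208), with every Arid1a cKO library above every control. Nuf2, which binds microtubules together with Ndc80, was at 14.5, 17.1 and 15.8 CPM in control and at 24.4, 25.6 and 20.9 CPM in Arid1a cKO, and rose 1.50-fold (adjusted p = 0.0272). Ndc80 itself was at 8.09, 10.8 and 9.31 CPM in control and at 14.5, 15.1 and 11.8 CPM in Arid1a cKO. The groups do not overlap, but its log2 fold change of 0.56 had an adjusted p of 0.0741 by edgeR. Spc25, the partner of Spc24, mixed between the groups, at 25.3, 20.4 and 18.2 CPM in control and 20.1, 30.5 and 18.8 CPM in Arid1a cKO. Its log2 fold change was 0.12 (95% interval -0.38 to 0.62), and -0.13 without Arid1a cKO replicate 2, the library where it was highest. Spc24 no longer passed once control replicate 1, control replicate 3 or Arid1a cKO replicate 2 was left out, nor did Nuf2, which also failed without Arid1a cKO replicate 1, at adjusted p values up to 0.0942.

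At the centromere, 1 of 4 genes rose. Cenpe, a large motor of the kinetochore corona, was at 28.9, 36.7 and 31.1 CPM in control and at 44.6, 47.9 and 44.7 CPM in Arid1a cKO, 1.42-fold higher (log2 fold change 0.51, SE 0.0939, edgeR adjusted p = 0.0315). Cenpf, another corona protein, was at 53.7, 70.5 and 64.2 CPM in control and at 83.5, 87.9 and 83.8 CPM in Arid1a cKO. It lay just past the threshold at an adjusted p of 0.0505 (log2 fold change 0.44). Cenpa, the histone H3 variant that marks centromeres, was at 28.7, 38.9 and 33.3 CPM in control and at 45.5, 45.2 and 38.5 CPM in Arid1a cKO, so the groups touch at control replicate 2, and its log2 fold change was 0.36 (95% interval 0.08 to 0.63, adjusted p = 0.136). Hjurp, the chaperone that loads Cenpa, was at 203, 265 and 230.5 CPM in control and at 245.5, 260.6 and 262 CPM in Arid1a cKO. The highest value is a control library, and the log2 fold change was 0.14 (95% interval -0.09 to 0.37, adjusted p = 0.456). Per kilobase of exon Hjurp had the highest control level of the 44 genes, 27.9 CPM per kilobase, against 5.74 for Cenpa. The Cenpe call held without control replicate 2 and was lost without each of the other 5 libraries, at adjusted p values up to 0.103.

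All 3 genes of the chromosomal passenger complex listed here rose. This complex carries Aurora B kinase from centromeres to the spindle midzone. Birc5 (survivin), which docks it on chromatin, was at 16.2, 17.7 and 16.5 CPM in control and at 26.5, 25.3 and 22.3 CPM in Arid1a cKO, 1.47-fold higher (log2 fold change 0.56, SE 0.0886, edgeR adjusted p = 0.0203). Cdca8 (borealin), which binds survivin, was at 14.7, 17.9 and 17.0 CPM in control and at 25.1, 25.2 and 21.01 CPM in Arid1a cKO, 1.44-fold higher (adjusted p = 0.0417). Incenp, the scaffold that holds the kinase, was at 39.8, 42.0 and 39.1 CPM in control and at 55.9, 55.5 and 47.9 CPM in Arid1a cKO, 1.32-fold higher (adjusted p = 0.0347). In all 3 genes the groups are separate and Arid1a cKO replicate 3 is the lowest of its group. Birc5 failed once control replicate 1, control replicate 3 or Arid1a cKO replicate 2 was left out. The Incenp call held only without Arid1a cKO replicate 3, and the Cdca8 call was lost without each of the 6 libraries, at adjusted p values up to 0.123.

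Among the checkpoint and APC/C genes 3 of 4 rose. Ube2c, the ubiquitin-conjugating enzyme that starts chains on APC/C substrates, was at 16.9, 22.0 and 20.0 CPM in control and at 33.8, 31.4 and 26.8 CPM in Arid1a cKO, 1.56-fold higher (log2 fold change 0.64, SE 0.121, edgeR adjusted p = 0.0328). Cdc20, the activator of the APC/C at anaphase, was at 14.9, 21.2 and 19.7 CPM in control and at 31.4, 27.4 and 27.2 CPM in Arid1a cKO, 1.54-fold higher (adjusted p = 0.0479). Bub1b (BubR1), a checkpoint protein that holds Cdc20 inactive, was at 24.1, 30.1 and 26.6 CPM in control and at 41.1, 41.7 and 36.9 CPM in Arid1a cKO, 1.48-fold higher (adjusted p = 0.0233). So both the activator and an inhibitor of the APC/C rose. Mad2l1 (Mad2), the other checkpoint inhibitor of Cdc20 listed, was at 26.1, 28.5 and 30.9 CPM in control and at 35.6, 37.3 and 33.3 CPM in Arid1a cKO, with an adjusted p of 0.0778 (log2 fold change 0.31) although the groups are separate. Ube2c shares 592 exonic bases with Tnnc2 on the opposite strand, and Tnnc2 itself was between 0.0319 and 1.78 CPM. The Cdc20 call was also lost with upper quartile or library size scaling and with no filter. It was lost without each library in turn, the Ube2c call without each but control replicate 2, and the Bub1b call on leaving out control replicate 1, control replicate 3, Arid1a cKO replicate 2 or Arid1a cKO replicate 3, at adjusted p values up to 0.114.

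Of 8 genes of condensin and chromosome structure, 4 rose. Top2a, the topoisomerase that untangles sister chromatids, was at 125, 147 and 133 CPM in control and at 203, 212 and 183 CPM in Arid1a cKO, 1.47-fold higher (log2 fold change 0.56, SE 0.0832, edgeR adjusted p = 0.0171). Ncaph, the kleisin subunit of condensin I, was at 15.8, 17.9 and 15.8 CPM in control and at 23.4, 25.4 and 22.7 CPM in Arid1a cKO, 1.44-fold higher (adjusted p = 0.0211). Ncapd2, a HEAT-repeat subunit of condensin I, was at 59.1, 80.0 and 74.9 CPM in control and at 102.4, 104.6 and 96.6 CPM in Arid1a cKO, 1.42-fold higher (adjusted p = 0.0495). Control replicate 1 stands low for Ncapd2, and all 4 of these genes have separate groups. The fourth, Cdca2 (Repo-Man), which brings a phosphatase to anaphase chromosomes, was at 14.8, 16.3 and 14.3 CPM in control and at 20.9, 22.8 and 19.1 CPM in Arid1a cKO, 1.38-fold higher (adjusted p = 0.0405). The third condensin I subunit, Ncapg, stood at 0.35 on the log2 scale (adjusted p = 0.0689) with separate groups. The ATPases Smc2 and Smc4, which condensin I and II share, had log2 fold changes of 0.23 (95% interval 0.02 to 0.44) and 0.14 (95% interval -0.03 to 0.32), with adjusted p values of 0.186 and 0.314. Whether they differ from the condensin I subunits was not tested. Smc4 was at 131, 143 and 127 CPM in control and at 148, 158 and 137 CPM in Arid1a cKO, where Arid1a cKO replicate 3 lies below control replicate 2. Mki67 (Ki-67), which coats mitotic chromosomes and is the usual marker of dividing cells, was at 179, 231 and 198 CPM in control and at 258.5, 265 and 242 CPM in Arid1a cKO. Its groups are separate, but its log2 fold change of 0.33 (95% interval 0.10 to 0.56) had an adjusted p of 0.104. Top2a failed on leaving out control replicate 1 or control replicate 3, and Ncaph also on leaving out Arid1a cKO replicate 2 or Arid1a cKO replicate 3. Those of Ncapd2 and Cdca2 were lost without each library, at adjusted p values up to 0.127. The Ncapd2 call was also lost in 10 of the 12 other alternatives, at adjusted p values of 0.0507 to 0.0759, and held with DESeq2 and with a filter of 1 CPM in every library.

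Of 10 spindle genes 3 rose, among them the gene with the largest fold change of the 44. Psrc1 (chromosome 3, 108383839 to 108388231, mm10, plus strand), a microtubule regulator of the spindle, was at 10.3, 12.8 and 11.5 CPM in control and at 24.8, 23.4 and 20.0 CPM in Arid1a cKO. It rose 1.98-fold (log2 fold change 0.98, SE 0.117, edgeR adjusted p = 0.0116), and every Arid1a cKO library was more than 1.5 times the highest control. It was the only one of the 20 to pass without each library in turn, with adjusted p values up to 0.0452. Its 95% interval, 0.71 to 1.25, lay above the median of the 44 genes. Gtse1, which stabilises microtubules in mitosis, was at 6.98, 7.36 and 7.78 CPM in control and at 12.7, 10.8 and 10.3 CPM in Arid1a cKO, 1.53-fold higher (adjusted p = 0.0347). Tacc3, which links spindle microtubules into fibres, was at 23.5, 25.4 and 22.6 CPM in control and at 35.7, 34.8 and 29.6 CPM in Arid1a cKO, 1.40-fold higher (adjusted p = 0.0328). Both have separate groups. The Gtse1 call was lost without each library and the Tacc3 call without each but Arid1a cKO replicate 3, at adjusted p values up to 0.115.

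The other 7 spindle genes did not pass. Ckap5, a microtubule polymerase that Tacc3 recruits to the spindle, was level, at 130.05, 140.3 and 128.5 CPM in control and at 125.0, 134.4 and 136.9 CPM in Arid1a cKO. Its log2 fold change was -0.01 (95% interval -0.16 to 0.14). Nusap1, Dlgap5 and Ckap2l, which bundle or stabilise spindle microtubules, had log2 fold changes of 0.42, 0.42 and 0.41, separate groups and adjusted p values of 0.0625, 0.0815 and 0.0791. Aspm, which focuses spindle poles, had 0.29 with separate groups (adjusted p = 0.112). Hmmr and Ckap2 had 0.37 and 0.26 with groups that touch at control replicate 2 (adjusted p = 0.176 and 0.296).

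Of 5 cytokinesis genes 2 rose, and in all 5 the groups are separate. Racgap1, the GTPase-activating subunit of the centralspindlin complex, was at 34.8, 40.2 and 36.8 CPM in control and at 58.4, 55.1 and 47.9 CPM in Arid1a cKO, 1.44-fold higher (log2 fold change 0.53, SE 0.0912, edgeR adjusted p = 0.0247). Gas2l3, which links actin and microtubules at the midbody, was at 16.4, 18.9 and 17.2 CPM in control and at 23.4, 22.7 and 22.9 CPM in Arid1a cKO, 1.32-fold higher (adjusted p = 0.0372). The Arid1a cKO libraries of Gas2l3 lie close together (SD 0.379 CPM, n = 3). Ect2, the exchange factor that Racgap1 activates to switch on RhoA, stood at 0.39 on the log2 scale (adjusted p = 0.0848). Anln, a scaffold of the contractile ring, had 0.46 (adjusted p = 0.0922) and Prc1, which bundles the midzone microtubules, 0.36 (adjusted p = 0.0804). Racgap1 failed once control replicate 1, control replicate 3 or Arid1a cKO replicate 2 was left out, and Gas2l3 on leaving out any library or with library size scaling, at adjusted p values up to 0.121.

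Of 6 genes of mitotic entry and CDK partners, 2 rose. Cdca3, part of the ubiquitin ligase that removes the CDK inhibitor Wee1, was at 17.5, 19.0 and 17.9 CPM in control and at 31.3, 27.8 and 23.8 CPM in Arid1a cKO, 1.53-fold higher (log2 fold change 0.61, SE 0.106, edgeR adjusted p = 0.0262). Cks1b, a small CDK-binding protein, was at 22.3, 22.7 and 22.4 CPM in control, the tightest control values of the 44 genes (SD 0.177 CPM, n = 3). In Arid1a cKO it was at 34.0, 30.9 and 27.4 CPM, 1.37-fold higher (adjusted p = 0.0348). Its paralog Cks2 was at 6.47, 7.76 and 6.61 CPM in control and at 9.25, 11.7 and 9.56 CPM in Arid1a cKO, at 0.55 on the log2 scale (adjusted p = 0.0671). The count of Cks2 is uncertain, since 26.9% of the 75-base words of its transcripts also occur in transcripts of other genes, Gm15452 first among them. Gm15452 was itself higher in each Arid1a cKO library, at 2.87, 4.31 and 4.16 CPM in control and at 6.35, 5.93 and 5.77 CPM in Arid1a cKO. The phosphatases that activate CDK1, Cdc25b and Cdc25c, had log2 fold changes of 0.33 (adjusted p = 0.0661) and 0.60 (adjusted p = 0.109), both with separate groups. Cdc25c had the lowest level per length of the 44 genes (1.32 CPM per kilobase in control). G2e3, a ubiquitin ligase with raised levels in G2, was at 51.9, 60.9 and 54.9 CPM in control and at 52.1, 56.5 and 54.1 CPM in Arid1a cKO, so the groups overlap fully (log2 fold change -0.04, 95% interval -0.22 to 0.13). Cdca3 failed on leaving out any control library or Arid1a cKO replicate 2, and Cks1b on leaving out any library but Arid1a cKO replicate 3, at adjusted p values up to 0.114.

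**Figure D3:**
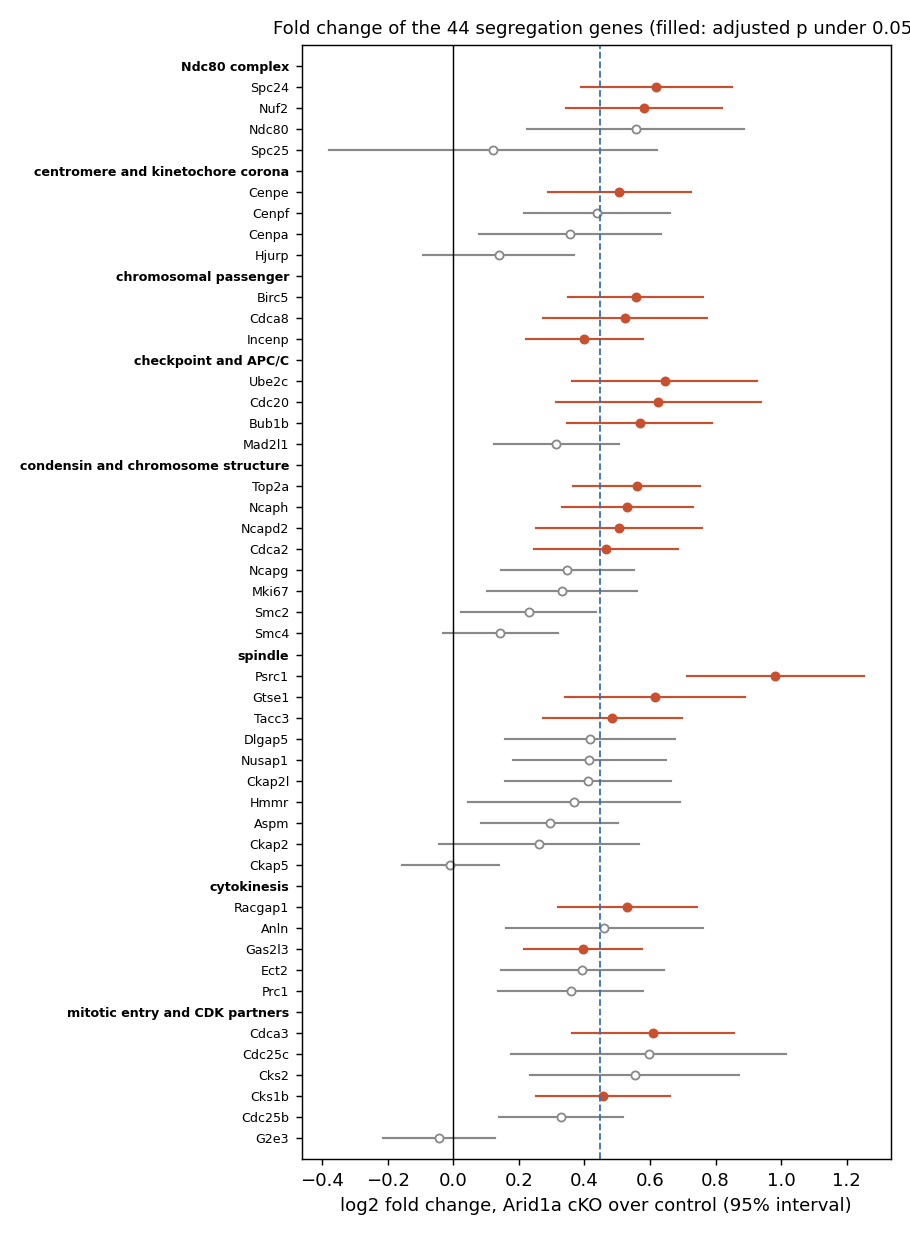
Log2 fold change of Arid1a cKO over control (x axis) with its 95% interval for each of the 44 genes, grouped by role; filled red points passed at an adjusted p under 0.05 in edgeR, and the dashed line is the median of the 44 genes. The interval lies above 0 in 38 genes and reaches the dashed line in 38, with Psrc1 above it and Smc2, Smc4, Hjurp, Ckap5 and G2e3 below it.

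The fold changes ran from -0.04 to 0.98 on the log2 scale. Only 7 of the 44 genes reached 1.5-fold, and 38 of the 95% intervals held the common median of 0.45. The exceptions were Psrc1 above it and 5 genes below it, which are Smc2, Smc4, Hjurp, Ckap5 and G2e3. Of the 24 genes that did not pass, 15 had separate groups. An unadjusted p under 0.05 with a higher level in Arid1a cKO was found in 38 of the 44, against 10.0% of all genes tested. Passing in one gene and not in another does not show that they differ.

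Other genes of the same processes, 100 of them in 8 lists that leave out the 44, were tested in the same fit. Of these 9 rose, 0 fell and 91 did not pass, with a median log2 fold change of 0.13. Outer kinetochore genes held 4 of the 9, out of 13. Ska3, of the Ska complex that steadies Ndc80 on microtubules, was at 4.88, 5.33 and 5.88 CPM in control and at 10.0, 9.66 and 8.58 CPM in Arid1a cKO, 1.76-fold higher (adjusted p = 0.0194). Zwilch, of the complex that recruits checkpoint proteins, changed by 0.54 on the log2 scale (adjusted p = 0.0263), Nsl1, of the Mis12 complex, 0.63 (0.0324) and Kntc1, which acts with Zwilch and is named after its value was seen, 0.57 (0.0392). The groups are separate in all 4 of these genes.

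In the 18 inner kinetochore genes 0 passed, at a median of 0.28, with Cenpp (log2 fold change 0.64, edgeR adjusted p = 0.0546), Cenpm (0.64, 0.0634) and Cenph (0.46, 0.0686) nearest. Spindle assembly held 2 of 16 that rose, Spag5 (0.53, 0.0236) and Tpx2, the activator of Aurora A (0.46, 0.0248), and Nde1 missed (0.27, 0.0513). In the 13 other cytokinesis genes Arhgap11a (0.45, 0.0342) and Shcbp1 (0.42, 0.0405) rose, and Cep55 had 0.33 (0.127). Separase, Espl1, which cuts cohesin at anaphase, rose (0.47, 0.0479) as 1 of 13 cohesin and separase genes, while Cdca5 (0.57, 0.0686) and Wapl (-0.19, 0.185) did not pass. In that list the median was -0.00583. None passed by edgeR among 17 APC/C genes (median 0.07, smallest p in Fbxo5, 0.38 with an adjusted p of 0.10005, Ube2s, 0.24 with 0.112, and Anapc11, 0.21 with 0.153), 7 spindle checkpoint genes (median 0.26, Trip13 0.48 with 0.0548, Sgo1 0.50 with 0.0574, Sgo2a 0.46 with 0.110) or 3 condensin II genes (Ncaph2 0.21, Ncapg2 0.12 and Ncapd3 -0.03). No more than 3 of the 9 calls remained without any 1 of the 6 libraries, and 0 remained on leaving out control replicate 1, control replicate 3 or Arid1a cKO replicate 2.

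**Figure D4:**
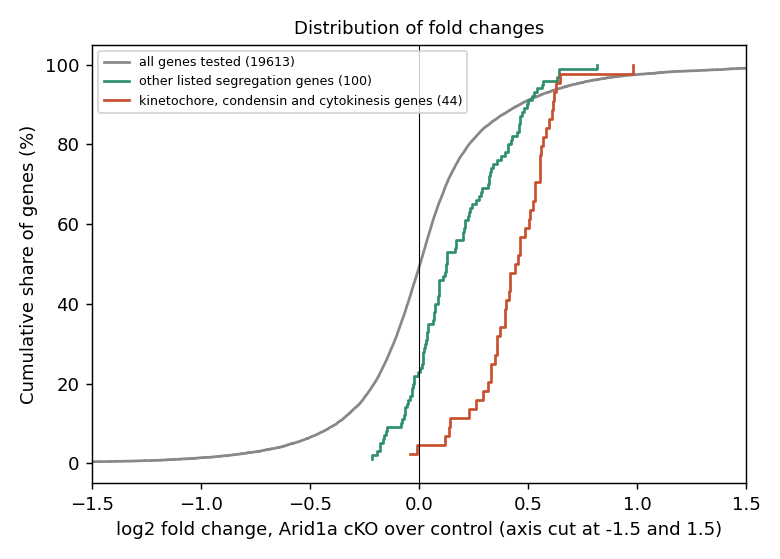
Cumulative share of genes (y axis, percent) by log2 fold change of Arid1a cKO over control (x axis) for the 44 genes (red), the 100 other segregation genes (green) and the 19613 genes tested (grey). The red curve crosses its middle at 0.45, the green at 0.13 and the grey at 0.00426.

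Reads of some of these genes may be counted for a neighbour or a copy. In 12 of the 44 over 2% of the 75-base words of the transcripts occur in another gene's transcripts, led by Cks2, then Ncapg (10.98%, with Lcorl on the opposite strand), Cdc25c (10.7%), Ube2c (10.1%) and Prc1 (7.87%, with Rccd1). No source used here states whether counting used strand. Lcorl was at 33.0 CPM in control and 26.0 CPM in Arid1a cKO (edgeR adjusted p = 0.179), and Rccd1 at 12.1 and 11.3 CPM. For Tacc3, which rose, the share is 5.63%, with Tmem129 on the opposite strand. Tmem129 was at 22.3 CPM in control and 22.7 CPM in Arid1a cKO (edgeR adjusted p = 0.826), where Tacc3 was at 23.8 and 33.4 CPM. Of the 20 genes that rose, Spc24, Racgap1, Cdc20, Tacc3, Ube2c and Ncapd2 are in this set of 12.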

How the data were processed

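RNA of 6 incisor libraries, 3 per genotype, was sequenced as single-end reads of 75 cycles, per the labels' protocols, and STAR 2.6.1d, Partek and the genome build mm10 are named in the submitters' processing notes. The authors deposited estimated counts per gene, which are not all whole numbers, and a table of normalized signal, in which each value is the count plus 1 over a single factor per library (tested on the values). No source used here gives the aligner settings, annotation release or strandedness. Starts matched GENCODE M21 in 99.4% of 25059 matched symbols.

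Counts were rounded. Genes were kept with filterByExpr (minimum count 10), normalized by TMM, and tested between all 3 control and all 3 Arid1a cKO libraries with edgeR 4.0.16 (glmQLFit robust, glmQLFTest, two-sided, no covariate, Benjamini-Hochberg over 19613 genes). SE is the absolute log2 fold change over the square root of F, and 95% intervals use the fitted degrees of freedom. The script was tested on simulated data. Software was Python 3.11.15 with matplotlib 3.10.9, and R 4.3.3 with DESeq2 1.42.0 and limma 3.58.1. The chi-square per degree of freedom was at least 29.3 between any pair of libraries, so none is a repeat of another. In the edgeR fit the common coefficient of variation between libraries beyond counting error was 15.8%. It is a single value for all genes, and spread was not compared with counting error gene by gene. SDs as small as those of Cks1b in control (0.177 CPM, n = 3) and Gas2l3 in Arid1a cKO (0.379 CPM, n = 3) may lie below counting error.

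The genes, lists and tests were chosen with earlier results of these data known. The text names Arid1a, the 44 genes and up to 3 genes of smallest p per list of other segregation genes, and beyond that rule Kntc1, marker genes and overlapping genes named after their values were seen. Alternatives were RLE, upper quartile and library size scaling, no filter, 1 CPM in every library, DESeq2, limma-voom, limma on the normalized signal (pseudocounts 1, 0.5 and 5), an epithelium covariate, a sex term and leaving out each library. Protein sequences were not used here.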

Additional observations from a re-analysis of the deposited data

How the results depend on the processing

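Without each library in turn, the number of the 44 segregation genes called higher was 1 to 11, that of all genes called higher 55 to 193, that of all genes called lower 98 to 339 and that of the 100 other segregation genes called higher 0 to 3. Fewer libraries enter these fits. DESeq2 called 34 of the 44, 20 of the other segregation genes, and 812 genes higher and 1093 lower. The epithelium covariate left 13 of the 44. The sex term called 455 genes higher and 817 lower, with 20 of the 44, where the cause was not tested. The other scalings, filters and limma fits called 17 to 21 of the 44. In each alternative 0 of the 44 were called lower and the median log2 fold change was 0.36 to 0.54.

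The sign turned in 3 genes, none of which passed in any fit. Ckap5, at -0.01, was 0.0101 with upper quartile and 0.0139 with library size scaling, 0.00544 with 1 CPM in every library, 0.00804, 0.00808 and 0.00776 in limma on the normalized signal with pseudocounts 1, 0.5 and 5, and 0.00644 with the epithelium covariate. Without 1 library Ckap5 ranged from -0.0273 to 0.0443, G2e3 from -0.0901 to 0.0357 and Spc25 from -0.13 to 0.268. No paired analysis was possible because the labels give the groups fewer than 2 shared replicate numbers, and do not say which library pairs with which.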

Other observations

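The promoter letters were counted in the same way in the other segregation genes. Of 82 windows, 40 held a CCAAT (48.8%), 29 a CHR form (35.4%) and 16 both (19.5%), between the 68.4% of the kinetochore, condensin and cytokinesis genes and the 5.98% of all windows of genes tested. TTTNNCGC was in 16 (19.5%), against 10.5% and 8.17%. Among protein-coding genes alone both motifs were in 5.90% of 11616 windows. These shares are descriptions of the letters in the windows, and their relation to the fold changes was not tested.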
